A study of Mus musculus with 2 samples.

Results

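Mir375, Mir7-1, Mir7-2 and Mir7b are mouse genes for miR-375 and for the miR-7 family, microRNAs (miRNAs) best known from endocrine cells. They were chosen by name, under a rule that uses no measured value though earlier results of these data were known, and all 4 were found among the 1973 genes with a row in the count tables of 2 small RNA libraries from embryonic stomach. Both libraries belong to 1 group of healthy B6NCrl embryos at day 16.5, with male and female embryos pooled and no treatment or mutant allele named. Replicate 2 pooled 41 embryos. For replicate 1 the labels say only that embryos were pooled, and both pools carry a single donor label. There is no other tissue, age or treatment, so the results are levels in the stomach and the agreement of the 2 pools, and no p-value is given.

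A miRNA gene is transcribed as a longer RNA that folds into a hairpin, and enzymes cut from it a short duplex whose arms, called 5p and 3p, can be loaded into an Argonaute protein. Bases 2 to 8 of the loaded arm, the seed, pair with target messenger RNAs. Mir375 is known for its high expression in pancreatic islets, where it restrains insulin secretion and is needed for normal numbers of hormone cells, and it is also expressed in gut epithelium. The miR-7 family is known from islets, the pituitary and the hypothalamus, and the circular RNA Cdr1as carries many binding sites for it.

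The hairpin of Mir375 lies at chr1:74900658-74900721 on the minus strand of GRCm38, the assembly that mm10 names, outside any annotated gene. On the same strand, Cfap65 lies 1.35 kb away and Cryba2, a crystallin gene, 7.51 kb away. Mir7-1 lies at chr13:58392779-58392886 on the minus strand, in an intron of Hnrnpk, the gene for an RNA-binding protein expressed in most cells, and 0 annotated Hnrnpk transcripts have an exon over it. Mir7-2 lies at chr7:78888277-78888373 on the plus strand outside any gene, 7.48 kb from Aen. Mir7b lies at chr17:56242988-56243098 on the plus strand, 183 bases from the long non-coding RNA gene AC026385.1. No other annotated miRNA gene lay within 30 kb of any of the 4, so each is a locus of its own.

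The mature arms are shown because the seed sets the family and because identical arms decide which reads a gene can be credited with. They are from RefSeq (GRCm38.p6), in which 4 of the 4 hairpins were found, with the seed in capitals.
mmu-miR-7a-5p: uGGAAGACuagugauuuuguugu
mmu-miR-7b-5p: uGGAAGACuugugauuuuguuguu
mmu-miR-7a-1-3p: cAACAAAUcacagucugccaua
mmu-miR-7a-2-3p: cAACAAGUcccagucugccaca
mmu-miR-7b-3p: cAACAAGUcacagccagccuca
mmu-miR-375-5p: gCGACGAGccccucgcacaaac

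All 3 miR-7 genes share the 5p seed, and no other mature miRNA of the RefSeq table has it. A gene with a similar name, Mir7j, has a row in the count tables but is not a member. No arm with this seed is listed for it. Mir7-1 and Mir7-2 encode the same miR-7a-5p, while miR-7b-5p differs from it by the single substitution A10U, outside the seed, over the 23 bases compared (positions are counted from 1 at the 5′ end). The 3p arms differ more. From miR-7a-1-3p to miR-7a-2-3p the substitutions were A7G, A10C and U21C, and from miR-7a-2-3p to miR-7b-3p they were C10A, U14C, U16A and A20U. The first of these, A7G, falls in the seed, so that miR-7a-2-3p and miR-7b-3p share a 3p seed that miR-7a-1-3p lacks. Mir375 also encodes miR-375-3p, for which the RefSeq table has no entry. The seed of that arm is therefore not shown, and the 5p seed alone does not set the family of Mir375. The seed of miR-375-5p was found in 1 gene, Mir375 itself.

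The hairpins show where reads can be told apart. Capitals mark the longest stretch that Mir7-1 and Mir7-2 share, in Mir7b the longest stretch shared with either of them, and in Mir375 the 5p arm.
Mir7-1: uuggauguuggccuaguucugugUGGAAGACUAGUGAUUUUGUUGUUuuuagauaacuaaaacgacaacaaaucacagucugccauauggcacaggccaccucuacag
Mir7-2: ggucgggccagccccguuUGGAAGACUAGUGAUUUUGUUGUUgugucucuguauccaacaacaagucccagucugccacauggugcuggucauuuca
Mir7b: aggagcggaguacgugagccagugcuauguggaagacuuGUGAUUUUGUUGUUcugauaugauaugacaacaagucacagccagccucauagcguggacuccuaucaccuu
Mir375: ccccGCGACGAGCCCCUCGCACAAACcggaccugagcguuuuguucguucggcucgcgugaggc

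Mir7-1 and Mir7-2 share 24 bases in a row, which hold the whole of miR-7a-5p. A read of that arm that lies within the shared stretch matches both genes equally well. Mir7b shares at most 14 bases in a row with either, and Mir375 at most 7 with any of the miR-7 hairpins. Of windows of 20 bases, 5 of 89 in Mir7-1 and 5 of 78 in Mir7-2 occur in another hairpin, in each case only that of the other gene, and 0 of 92 in Mir7b and 0 of 45 in Mir375 do. Over the 1005 hairpins of the RefSeq table, 16.1% hold such a window, and over the 253 hairpins of that table whose genes reached 10 counts-per-million (CPM) it was 24.9%. The rest of the genome was not searched. Each deposited table keeps a separate total for multiply placed reads, 25.1% of the reads of replicate 1 and 25.2% of those of replicate 2. From this it is inferred that the gene counts do not include such reads. The counts of Mir7-1 and Mir7-2 then leave out reads of their shared 5p arm, in an amount that the gene counts do not show, while those of Mir7b and Mir375 have no such overlap with another listed hairpin. The counts do not separate 5p from 3p reads for any of the 4 genes.

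**Figure D1:**
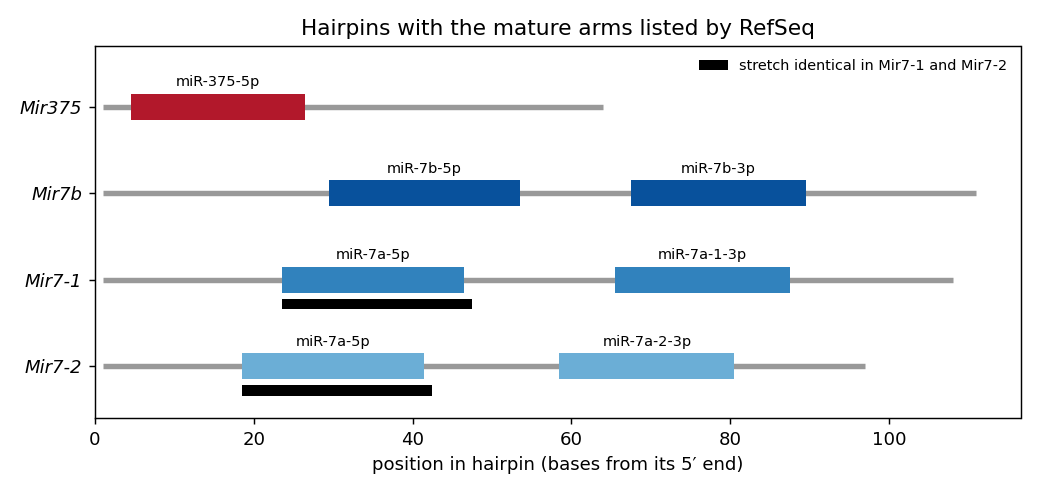
Hairpins of the 4 genes, drawn to scale along the position in the hairpin in bases from its 5′ end. Coloured blocks are the mature arms listed by RefSeq and black bars the 24 bases shared by Mir7-1 and Mir7-2, which cover all of miR-7a-5p in both genes.

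Libraries were of similar depth, with 7734578 sense reads at miRNA genes in replicate 1 and 7983714 in replicate 2, so that 3 counts, used as the floor, equal 0.388 and 0.376 CPM. Levels are CPM of these sense reads. Intervals are exact (Clopper-Pearson, 95%) and cover counting error only, as PCR copies of a molecule were not told apart. Marker lists were summed to describe the labelled tissue. With no other tissue to compare, they cannot tell stomach from other organs that hold the same cell types. The epithelial genes of the miR-200 family summed to 50884 CPM in replicate 1 and 51089 in replicate 2, those of gastrointestinal epithelium (miR-192, miR-194 and miR-215) to 4171 and 3774, and those of smooth muscle (miR-143 and miR-145) to 202084 and 197398. Nearly all of the smooth muscle sum is Mir143, and Mir145a alone had 5317 CPM in replicate 1 and 2540 in replicate 2. The skeletal muscle list (Mir206 and Mir133b) stood at 3209 CPM in replicate 1 and 102 in replicate 2.

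Mir375 was the most abundant of the 4 genes by far. It had 79594 reads in replicate 1 and 95473 in replicate 2, or 10291 and 11958 CPM, with a mean of 11125 ± 1179 CPM (SD, n = 2). Its share of the sense reads was 1.03% in replicate 1 (interval 1.02% to 1.04%) and 1.20% in replicate 2 (1.19% to 1.20%). It ranked 24 in replicate 1, 21 in replicate 2 and 23 by the mean. A gene known from islet cells thus stood among the leading miRNA genes by counted reads in both pools. If, as inferred, multiply placed reads are missing, genes that share arms with other genes are counted too low. The rank of Mir375 then holds among counted reads only. In bulk tissue, a gene expressed in few cells at a high level cannot be told apart from one expressed in many cells at a low level, and the data do not say which stomach cells held Mir375.

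The genes nearest to Mir375 in level over both libraries were Mir205, Mir99b and Mir411. Mir205, a gene of stratified epithelium such as the rodent forestomach, had 11359 CPM in replicate 1 and 10891 in replicate 2. It was above Mir375 in replicate 1 and below it in replicate 2, so the order of the pair is not settled. Mir200b, the next gene below by the mean, had 10804 and 7980 CPM and lay above Mir375 in replicate 1 too.

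Mir7b came second. It had 4290 reads in replicate 1 and 2802 in replicate 2, or 555 and 351 CPM, with a mean of 453 ± 144 CPM (SD, n = 2) and rank 126. Replicate 1 was the higher pool, opposite to Mir375. Its nearest genes over both libraries were Mir665, Mir3071 and Mir501. Mir665, a gene of the imprinted Dlk1-Dio3 region, had 517 CPM in replicate 1 and 292 in replicate 2.

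Mir7-1, the copy inside Hnrnpk, had 1223 reads in replicate 1 and 815 in replicate 2, or 158 and 102 CPM, with a mean of 130.1 ± 39.6 CPM (SD, n = 2) and rank 182. Its nearest genes were Mir673, Mir92b and Mir410. Mir673, of the same imprinted region, followed it closely at 152 and 99.2 CPM, while Mir135b, directly below it by the mean, was higher in replicate 2, at 119 and 135 CPM.

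Mir7-2 was the lowest. It had 266 reads in replicate 1 and 145 in replicate 2, or 34.4 and 18.2 CPM, with a mean of 26.3 ± 11.5 CPM (SD, n = 2) and rank 252. Both values were many times the floor, so the gene was detected in both pools. Its nearest genes were Mir212, Mir128-2 and Mir346, and Mir325, directly above it by the mean, had 21.8 and 31.3 CPM.

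The 4 genes kept the order Mir375, Mir7b, Mir7-1, Mir7-2 in both libraries, with no overlap between any neighbouring pair. The lowest library of Mir7b, 351 CPM, was above the highest of Mir7-1, 158 CPM, and the lowest of Mir7-1, 102 CPM, was above the highest of Mir7-2, 34.4 CPM. The order was the same per length of hairpin, with 17382 ± 1843 CPM per 100 bases for Mir375, 408 ± 130 for Mir7b, 120 ± 36.7 for Mir7-1 and 27.1 ± 11.8 for Mir7-2 (SD, n = 2 each). It is an order of counted reads. If, as inferred, reads of miR-7a-5p matching both genes are missing from the counts of Mir7-1 and Mir7-2, it does not show that more miR-7b than miR-7a was present. The hairpins differ in base composition as well, with 67.2% G and C in Mir375, more than in 94.6% of the listed hairpins, against 46.8% in Mir7b, 41.7% in Mir7-1 and 50.5% in Mir7-2, and its part in the order was not tested.

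**Figure D2:**
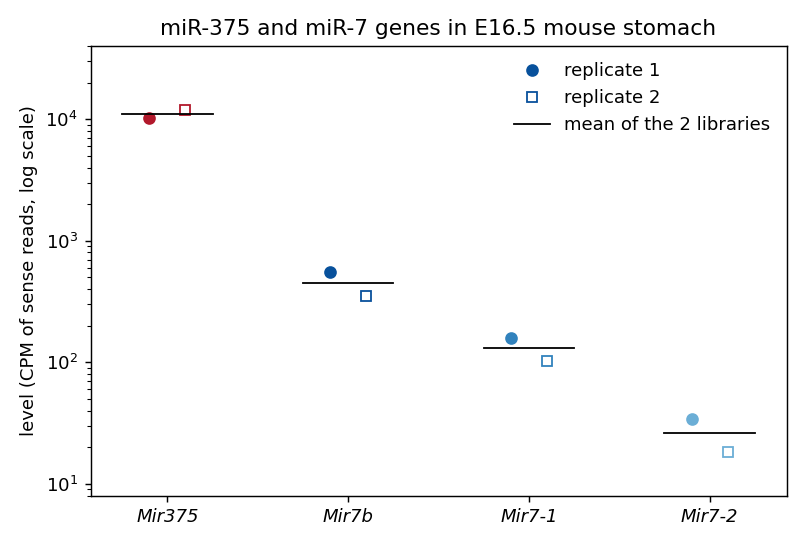
Level of each gene in CPM of sense reads on a log axis, with replicate 1 as filled circles, replicate 2 as open squares and the mean as a line. Mir375 lies at 10291 and 11958 CPM, all 3 miR-7 genes lie at 555 CPM or lower, and only Mir375 is higher in replicate 2.

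Together the 4 genes held 1.10% of the sense reads in replicate 1 and 1.24% in replicate 2, a mean of 1.17% ± 0.0984 (SD, n = 2). Mir375 supplied 93.2% of those reads in replicate 1 and 96.2% in replicate 2. On the opposite strand each of the 4 genes had 0 reads in both libraries, so the counts do not depend on strand.

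Within the miR-7 family the make-up of the counted reads was nearly the same in both pools. Mir7b held 74.2% of the 5779 miR-7 reads of replicate 1 (interval 73.1% to 75.4%) and 74.5% of the 3762 of replicate 2 (73.1% to 75.9%). Mir7-1 held 21.2% (20.1% to 22.2%) and 21.7% (20.4% to 23.0%). Mir7-2 held 4.60% (4.08% to 5.18%) and 3.85% (3.26% to 4.52%). For each of the 3 genes the intervals of the 2 libraries overlapped. The ratio of Mir7b to Mir7-1 reads was 3.51 in replicate 1 and 3.44 in replicate 2, a log2 difference of 0.03 (interval -0.12 to 0.18), and that of Mir7-1 to Mir7-2 was 4.60 and 5.62, a log2 difference of -0.29 (interval -0.62 to 0.04). The 3 genes lie on 3 different chromosomes.

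**Figure D3:**
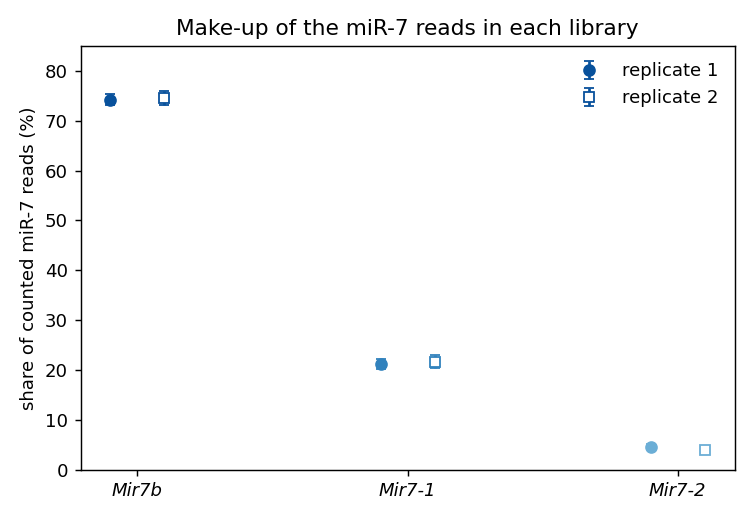
Share of the counted miR-7 reads in percent held by each miR-7 gene, with replicate 1 as filled circles, replicate 2 as open squares and bars for the exact 95% interval of counting error. Mir7b stands at 74.2% and 74.5%, and the intervals of the 2 libraries overlap for every gene.

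The counted miR-7 reads were not at the same level in the 2 pools. The summed miR-7 genes stood at 747 CPM in replicate 1 and 471 in replicate 2, a mean of 609 ± 195 CPM (SD, n = 2). Mir7b held 74.2% of this sum in replicate 1 and 74.5% in replicate 2. As inferred above, the sum leaves out miR-7a-5p reads that match both Mir7-1 and Mir7-2, so it is not the level of the whole family. To compare the pools, counts were scaled by the trimmed mean of M values (TMM) with 0.5 added to each count, and the log2 ratio of replicate 1 over replicate 2 was taken for the 289 genes whose mean was at least 10 CPM. Mir7b had a log2 ratio of 0.48 (counting interval 0.41 to 0.55), Mir7-1 of 0.45 (0.32 to 0.58) and Mir7-2 of 0.74 (0.44 to 1.04), all higher in replicate 1. Mir375 had a log2 ratio of -0.40 (-0.41 to -0.39), which is 1.32-fold higher in replicate 2. No counting interval of the 4 held 0, so with this scaling the pools differed in these genes by more than counting error. The intervals leave out error in the scaling itself. How many of the 289 tested genes had an interval without 0 was not counted, so this cannot be called particular to the members.

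At a 2-fold threshold 0 of the 4 genes differed between the pools, where 7.96% of the 289 genes tested did, 21 higher and 2 lower in replicate 1. Differences of the size seen for the members were common. Of the other tested genes, 30.9% lay at least as far from a ratio of 1 as Mir375, 24.3% as far as Mir7b, 26.4% as far as Mir7-1 and 13.9% as far as Mir7-2. With this scaling the tested genes had a median log2 ratio of 0.02. Scaling by total sense reads moved it to 0.21 and gave -0.22 for Mir375, 0.66 for Mir7b, 0.63 for Mir7-1 and 0.92 for Mir7-2, with the same signs. With 1 library on each side the spread among animals was not measured.

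**Figure D4:**
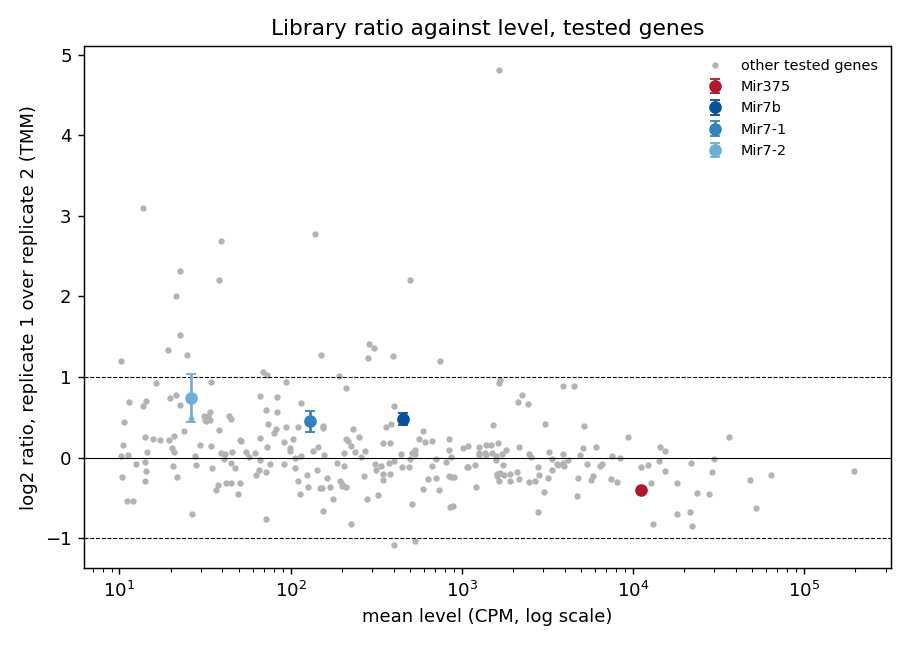
Log2 ratio of replicate 1 over replicate 2 after TMM scaling against the mean level in CPM on a log axis, for the 289 tested genes (grey) and the 4 members (coloured, with 95% counting intervals). Dashed lines mark 2-fold; the 3 miR-7 genes lie between 0.45 and 0.74, Mir375 lies at -0.40, and 23 other genes lie beyond the lines.

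The difference between Mir375 and the counted miR-7 reads, which are mostly those of Mir7b, does not depend on scaling. Mir375 had 13.8 reads for each counted miR-7 read in replicate 1 and 25.4 in replicate 2, a 1.84-fold change in the ratio (log2 difference -0.88, counting interval -0.94 to -0.82). The 4 genes, grouped as endocrine, did not move together between the pools, while the 3 miR-7 genes were on the same side. The library ratio also varied with level. Most of the most abundant genes were lower in replicate 1, as Mir375 was. Most of the least abundant tested genes were higher in it, as Mir7-2 was, and genes near Mir7b and Mir7-1 in mean level were mixed. Whether the split of the 4 genes goes beyond this trend with level was not tested, so it cannot be called particular to them. Mir7j, similar in name but not a member, had 109 CPM in replicate 1 and 104 in replicate 2. Its log2 ratio of -0.12 was on the side opposite to the miR-7 genes. Seed families with at least 3 tested genes were set beside the miR-7 family. Over 17 such families, some of which share genes, the range of log2 ratios within a family ran from 0.09 to 1.76 with a median of 0.70. The families held 3 to 9 tested genes, and a range can only grow as genes are added. The range of 0.29 within miR-7 was the fifth smallest, after those of the families of miR-99, miR-130, miR-148 and miR-17 (its 3p seed). Those families also held 3 genes each. Other families of 3 genes had ranges of 0.70 (miR-200b), 0.93 (miR-26), 0.97 (miR-199) and 1.76 (miR-34), so miR-7 stood in the middle of families of its size. A narrow range was thus not particular to miR-7.

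Other genes reported from islets or enteroendocrine cells formed a list of 15, of which 14 had a row and 8 reached 10 CPM. Of these 8, 4 were higher and 4 lower in replicate 1, with a median log2 ratio of 0.15, against 153 higher and 136 lower and a median of 0.02 over all genes tested. The list summed to 12994 CPM in replicate 1 and 12052 in replicate 2, led by Mir30d at 5153 ± 1444 CPM, Mir182 at 3206 ± 113, Mir183 at 2779 ± 672 and Mir96 at 1206 ± 105 (SD, n = 2 each). Mir375 alone was thus nearly as abundant as the list, but these leading genes supplied nearly all of the list's sum, so the comparison is mostly with them. Mir182, Mir183 and Mir96, a cluster known from sensory epithelia, were lower in replicate 1, as Mir375 was, at log2 ratios of -0.25, -0.68 and -0.36. Mir204 had a log2 ratio of 0.77, on the side of the miR-7 genes, and Mir129-1 and Mir129-2 were 6.46-fold and 4.61-fold higher in replicate 1. Mir184 stood at 6.98 CPM in replicate 1 and 3.88 in replicate 2. All 3 Mir124a copies (Mir124a-1, -2 and -3), which encode a miRNA known from neurons and islets, had no counted read. The floor of 0.388 CPM in replicate 1 and 0.376 in replicate 2 is then the upper limit for singly placed reads, and it sets no bound on multiply placed reads.

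The pancreas lies beside the stomach and is rich in miR-375 and miR-7, so its acinar genes were read out too. The list had 3 genes with a row, and 0 of them reached 10 CPM. Mir217 had 35 reads in replicate 1 and 15 in replicate 2, Mir216b had 10 and 4, and Mir216a had 2 and 4. Their sum was 6.08 CPM in replicate 1 and 2.88 in replicate 2, higher in the pool in which the miR-7 genes were higher. The part of pancreatic tissue in the level of the 4 genes was not tested.

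Neuronal genes, of interest because miR-7 is abundant in parts of the brain and the stomach wall holds enteric neurons, summed to 1854 CPM in replicate 1 and 1518 in replicate 2. Of the 11 with a row, 6 reached 10 CPM, 3 of them higher and 3 lower in replicate 1, and Mir137 led at 1399 and 1126 CPM, with a log2 ratio of 0.13. Mir137 supplied most of the sum, while the 3 Mir124a copies, also on this list, had no counted read. The list for pituitary and retina (Mir182, Mir183, Mir96, Mir132 and Mir212) summed to 6890 and 8088 CPM, with 2 genes higher and 3 lower in replicate 1. Mir212, the genomic neighbour of the neuronal gene Mir132, was the closest of all genes to Mir7-2, at 32.2 and 20.3 CPM against 34.4 and 18.2. Mir671, whose miRNA directs cleavage of the circular RNA Cdr1as, had 433 CPM in replicate 1 and 293 in replicate 2. Its log2 ratio of 0.38 was on the same side as those of the miR-7 genes. Cdr1as itself has no row in these tables of miRNA genes.

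Lists of other cell types moved with the members in part. The hepatocyte gene Mir122 was at 1821 CPM in replicate 1 and 1210 in replicate 2, a log2 ratio of 0.41, and the skeletal muscle genes were higher in replicate 1, Mir206 28.1-fold and Mir133b 8.59-fold, as were the miR-7 genes. Of the smooth muscle genes, Mir145a was 1.84-fold higher in replicate 1 (log2 ratio 0.88), on the side of the miR-7 genes and farther from 0 than any of the 4 members, while Mir143 had a log2 ratio of -0.17. The stratified epithelial genes were lower in replicate 1, with log2 ratios of -0.85 for Mir203 and -0.12 for Mir205, and so were 4 of the 5 miR-200 genes, from -0.44 for Mir429 to -0.04 for Mir200c, as was Mir375. The fifth, Mir200b, had a log2 ratio of 0.25. The gastrointestinal epithelial genes were split, 2 higher and 2 lower, between -0.22 for Mir215 and 0.16 for Mir192. The part of tissue carried along or of the mix of cell types in the ratios of the 4 genes was not tested.

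**Figure D5:**
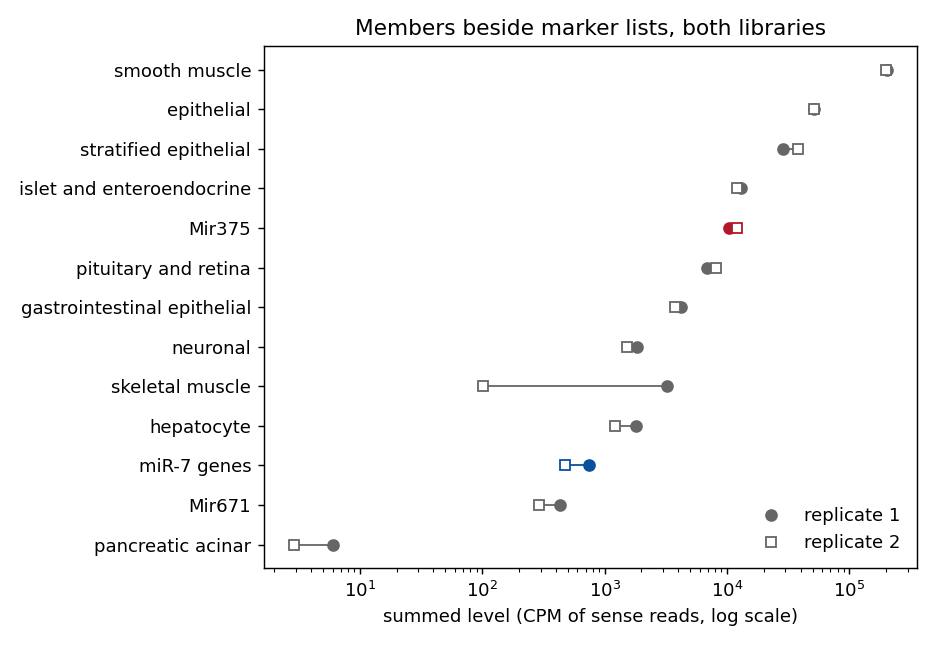
Summed level of each marker list in CPM on a log axis in replicate 1 (filled circles) and replicate 2 (open squares), with Mir375 in red and the sum of the 3 miR-7 genes in blue. Mir375 lies beside the islet and enteroendocrine list and the miR-7 genes beside Mir671 and the hepatocyte gene, and the acinar list is lowest at 6.08 and 2.88 CPM.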

How the data were processed

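The authors deposited a table of raw read counts per gene for each library, with columns for both strands together, the sense strand and the opposite one. The build is mm10 and the annotation GENCODE M4, per the file headers. Which aligner, counter and trimming were used is not given in the sources used here. The strand column with the larger total was used. The 4 summary totals name no gene and were left out: unmapped reads (21.3% and 20.3% of all reads in replicates 1 and 2), reads in several positions (25.1% and 25.2%), reads in no gene (2.81% and 3.11%) and 0 ambiguous reads.

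Symbols, positions and introns came from GENCODE M21 (GRCm38), which named 1894 of the 1973 identifiers. Mir375 carries an older identifier version in the tables, so its limits there may differ. CPM used the summed sense reads. TMM factors came from edgeR 4.0.16 in R 4.3.3 over genes whose mean was at least 10 CPM, and alternative size factors from DESeq2 1.42.0. Other steps used Python 3.11.15, numpy 2.4.6, pandas 2.3.3, scipy 1.17.1 and matplotlib 3.10.9. The ratio step was run on simulated counts with counting error only and with equally many genes raised and lowered. Such counts lack any further spread between pools, so the run says nothing on how that spread is handled.

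The members, marker lists and comparisons were chosen with earlier results of these data known, although the rule for the members uses names alone. Genes named are the members, the 3 nearest to each by Euclidean distance in log2(CPM + 1), those directly above and below by mean, up to 4 leading genes of each list, and annotated neighbours. Mir204, Mir129-1, Mir129-2, Mir184, the Mir124a copies and Mir212 as a list gene were named after their values were seen. Alternatives covered strand, scaling, denominator, pseudocount, the CPM filter, window length and each library left out.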

Additional observations from a re-analysis of the deposited data

How the results depend on the processing

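With all reads of a library as the denominator, the mean level was 5519 CPM for Mir375, 224 for Mir7b, 64.4 for Mir7-1 and 13.0 for Mir7-2, since 49.1% and 50.0% of the reads were sense reads at miRNA genes, and the order was the same. With each library left out in turn, the level ran from 10291 to 11958 CPM for Mir375, 351 to 555 for Mir7b, 102 to 158 for Mir7-1 and 18.2 to 34.4 for Mir7-2. The library ratio kept its sign for each of the 4 genes under all 5 alternatives. Scaling by total sense reads gave -0.22 for Mir375, 0.63 for Mir7-1 and 0.66 for Mir7b, and DESeq2 size factors gave -0.42 for Mir375; these lie outside the counting interval of the TMM value. The number of genes at least 2-fold apart was 60 at a mean of 1 CPM, 267 with no filter and 12 at a mean of 100 CPM, since these settings change how many genes are tested (437, 751 and 193), and it included 0 of the 4 members under each setting. The calls were 21 higher and 2 lower in replicate 1 at a mean of 10 CPM, 35 and 25 at 1 CPM, 143 and 124 with no filter, 10 and 2 at 100 CPM, and 29 and 0 with total sense reads. No paired analysis was possible because there is 1 group. With 1 library left, no ratio can be formed. Depth limits Mir7-2 most, with 145 reads in replicate 2.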
